A study of Mus musculus with 6 samples.

Results

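The 9 genes described here encode the selenium-binding proteins Selenbp1 and Selenbp2 and 7 selenoproteins (Selenop, Gpx1, Gpx4, Dio1, Msrb1, Sephs2 and Txnrd2), out of 25690 genes in the deposited expression table. They were chosen by name, around Selenbp2, which had been picked on its higher level in the knockout. The knockout values of Selenbp2 are therefore given as a description, without a test. RNA of hepatic tissue from mice was sequenced in 3 wild type control libraries and 3 libraries of a hepatic knockout of FTO, an RNA demethylase that acts on N6-methyladenosine. The labels give no strain, age, sex or treatment, do not say how or in which cells the gene was deleted, and leave unsaid whether each library is an animal of its own. The tests therefore measure the spread between libraries, which may be technical. Values are FPKM (fragments scaled to transcript length and to the mapped fragments of a library), listed below in the order of replicates 1, 2 and 3 of each group, and errors are SDs over 3 libraries.

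Selenoproteins carry selenocysteine, the selenium analogue of cysteine, usually at the active site of a redox enzyme. The residue is encoded by UGA, read as selenocysteine and not as a stop with the help of a hairpin in the untranslated end of the mRNA and of dedicated proteins. The liver is the organ that packs selenium into selenoprotein P, which plasma carries to other tissues. Selenium-binding proteins are a separate family: they bind selenium but contain no selenocysteine. Human SELENBP1 oxidises methanethiol, and mouse Selenbp2 is known as a liver protein that binds acetaminophen.

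The sequences around the selenocysteine codons are shown because they are what the 7 selenoprotein genes share and what sets them apart from Selenbp1 and Selenbp2. Each is coding sequence of GENCODE M21 (GRCm38, the assembly of mm10), 5′ to 3′ on the sense strand, with 18 bases on either side where the reading frame allows, and with the selenocysteine codon TGA (UGA in the RNA) in capitals.
Gpx1: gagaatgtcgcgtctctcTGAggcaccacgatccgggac
Gpx4: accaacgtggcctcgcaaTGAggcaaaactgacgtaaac
Sephs2: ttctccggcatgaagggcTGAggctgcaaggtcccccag
Txnrd2: cctactgtgactggttgcTGAggc
Dio1: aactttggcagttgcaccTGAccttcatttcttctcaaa
Msrb1: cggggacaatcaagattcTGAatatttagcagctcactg
Selenop, first codon: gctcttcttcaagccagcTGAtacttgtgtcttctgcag
Selenop, last 4 codons: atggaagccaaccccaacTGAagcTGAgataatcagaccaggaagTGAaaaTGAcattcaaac
Selenop has 10 such codons, and the other 6 genes have 1 each. The codon lies early in Gpx1 (codon 47 of 201), Gpx4 (codon 73 of 197) and Sephs2 (codon 63 of 452). In Txnrd2 it is the codon before the last (526 of 527), so the sequence above ends there. Directly after the codon, a G follows in 6 of the 16 codons, a C in 6, an A in 3 and a T in 1. Over all 34 selenocysteine codons of the 24 mouse selenoprotein genes, the counts were 14, 11, 7 and 2.

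Selenbp1 and Selenbp2 are near-identical copies on the plus strand of chromosome 3. Selenbp2 (ENSMUSG00000068877) spans chr3:94693556-94704413 and Selenbp1 (ENSMUSG00000068874) spans chr3:94933056-94944758 in mm10, with 228642 bases between them. Their coding sequences, 1416 bases each, differed at 18 positions (98.73% identity), and the longest identical run was 193 bases. Coding bases 390 to 449, counted from the start codon, held 4 differences, in capitals. They are shown because no other stretch of 60 coding bases held more. The untranslated ends were not aligned.
Selenbp1: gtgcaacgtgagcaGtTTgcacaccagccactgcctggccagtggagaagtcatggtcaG
Selenbp2: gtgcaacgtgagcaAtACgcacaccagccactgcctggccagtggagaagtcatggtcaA
Of all windows of 50 bases in the Selenbp2 transcript, 52.0% also occur in Selenbp1, and of windows of 100 bases 21.2% do. How reads that fit both copies were assigned, and the read length, are not given in the sources used here, so the split between the copies is uncertain.

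The promoters are shown because the copies also share most of this sequence. They are from RefSeq (GRCm38.p6), from 250 bases before the RefSeq start to the last base before the GENCODE transcript start, on the plus strand: chr3:94932833-94933055 for Selenbp1 and chr3:94693323-94693555 for Selenbp2. Capitals mark bases that differ from, or have no partner in, the other copy.
Selenbp1: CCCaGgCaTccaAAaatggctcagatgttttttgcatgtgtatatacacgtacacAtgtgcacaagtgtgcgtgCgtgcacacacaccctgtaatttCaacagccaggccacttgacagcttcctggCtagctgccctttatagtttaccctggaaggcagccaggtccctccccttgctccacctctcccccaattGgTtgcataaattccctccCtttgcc
Selenbp2: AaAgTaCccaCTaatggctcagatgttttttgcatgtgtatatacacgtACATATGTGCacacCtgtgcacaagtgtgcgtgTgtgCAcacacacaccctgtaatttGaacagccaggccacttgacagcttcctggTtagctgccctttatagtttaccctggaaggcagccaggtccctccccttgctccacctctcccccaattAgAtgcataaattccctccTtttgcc
Of 235 aligned columns, 27 differed (88.5% identity). No measurement of promoter activity or binding is part of these data.

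As listed in the deposited values, Selenbp2 was about 4.5 times as abundant in the knockout, while the groups overlapped for its copy Selenbp1. Both statements rest on the uncertain split of reads between the copies. The wild type libraries gave 61.7, 80.8 and 70.9 FPKM of Selenbp2, and the knockout libraries 270.8, 331 and 349.8 FPKM. Every knockout library lay far above every wild type library. The means were 71.1 ± 9.54 and 317 ± 41.3 FPKM, a ratio of 4.46 and a difference of 2.14 on the log2(FPKM + 1) scale. That difference was between 2.05 and 2.25 under all 13 alternatives tried, including leaving out each library. Dropping the filter and robust empirical Bayes cannot change it. Since this contrast chose the gene, the range is a description only and no p-value is given.

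Selenbp1 had 132, 178 and 169 FPKM in wild type against 155, 204 and 194 FPKM in knockout. The groups overlapped, and both spread by about the same amount (160 ± 24.5 and 184 ± 25.9 FPKM). The fitted difference was 0.20 (95% interval -0.18 to 0.59, adjusted p 0.570 in limma). All p-values below come from this limma fit on log2(FPKM + 1) across the 10405 genes that averaged 1 FPKM or more, with Benjamini-Hochberg adjustment over all of them, and a gene is called at an adjusted p under 0.05.

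Because reads may be exchanged between the copies, their sum was also taken. It was 194, 259 and 240 FPKM in wild type against 426, 535 and 543 FPKM in knockout, a ratio of 2.17 between the means of 231 ± 33.6 and 501 ± 65.7 FPKM. The part of read assignment between the copies in these values was not tested. Selenbp2 made up 31.8%, 31.2% and 29.5% of the pair in wild type and 63.6%, 61.9% and 64.4% in knockout. Selenbp1 was the more abundant copy in all 3 wild type libraries and Selenbp2 in all 3 knockout libraries. The sum and the share contain the value that chose Selenbp2 and are descriptions too.

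**Figure D1:**
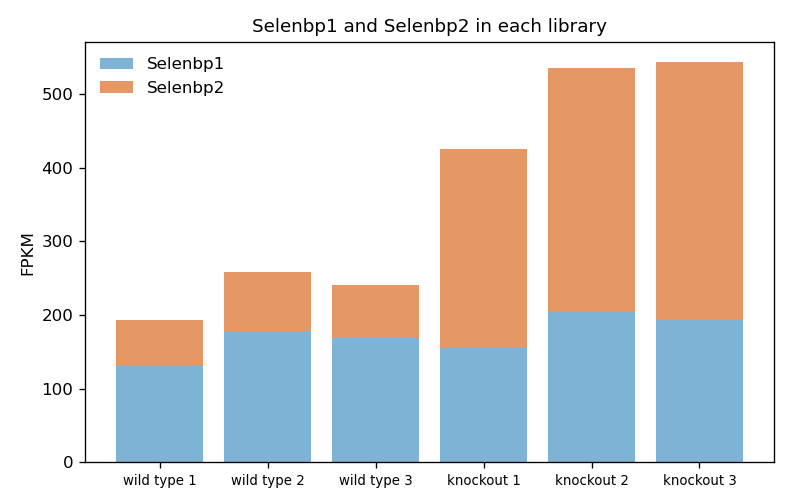
Stacked bars of Selenbp1 (blue) and Selenbp2 (orange) in FPKM for each of the 6 libraries. Selenbp1 stays between 132 and 204 FPKM, while Selenbp2 is at 80.8 FPKM or less in wild type and at 270.8 FPKM or more in knockout.

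The table holds 3 genes that lie between the copies, all tested. None of the 3 was called by limma or had an unadjusted p under 0.05, and their log2 differences were 0.04 to 0.07. The genes whose pattern over the 6 libraries was most like that of Selenbp2, by Pearson correlation of log2(FPKM + 1) among 4061 genes averaging 10 FPKM or more, were Gsdmd (0.993), Cfhr2 (0.992), Ahsg (0.991), C1rb (0.990) and Serpina11 (0.989). Gsdmd encodes gasdermin D, a pore-forming protein, and Ahsg encodes the plasma protein fetuin-A. These coefficients rest on 6 libraries in 2 groups and mainly follow the gap between them. The size of that gap differed: Ahsg was at 2897, 2868 and 2958 FPKM in wild type against 4219, 4652 and 4774 FPKM in knockout, a smaller relative difference than that of Selenbp2. Among the other members the coefficient with Selenbp2 ran from -0.85 for Selenop to 0.74 for Msrb1, with Selenbp1 at 0.61. All coefficients with Selenbp2 contain the values that chose it and are descriptions only.

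Fto, the deleted gene, had 6.66, 6.02 and 6.40 FPKM in wild type against 1.79, 3.83 and 2.66 FPKM in knockout, a value per gene that shows no single exon. It was called lower (log2 difference -1.0, SE 0.19, adjusted p 0.0386), but not without wild type replicate 1 (adjusted p 0.0812), 2 (0.115) or 3 (0.0636), without knockout replicate 1 (0.0683) or 3 (0.147), with nuclear sum scaling (0.0613) or without a filter on low values (0.197). In all, 287 of the 10405 tested genes (2.76%) were called, 115 higher and 172 lower, or 147 higher and 142 lower with libraries scaled to an equal sum over nuclear genes. In 24.5% of the tested genes the libraries of the groups did not overlap. Depth inferred from the lowest values was 34140000 to 42530000 fragments per library, and the thinnest member value (Msrb1 in wild type replicate 1) corresponds to about 1252 fragments. Wild type replicate 3 differed from the other wild type libraries in a way that followed transcript length. Relative to their mean, genes whose longest transcript had up to 1500 bases were higher by a median of 0.38 on the log2 scale. Genes over 4000 bases were at -0.09. The knockout mean, taken against the same wild type libraries, followed length in the same direction to a smaller degree, at 0.15 and -0.04.

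Of the other 8 members, 0 were called, against the 2.76% of all tested genes, and 0 had an unadjusted p under 0.05, against 18.7%. Log2 differences ran from -0.33 to 0.20 with a median of -0.08, beside -0.00 over all tested genes. The groups did not overlap in 1 of the 8, Selenop, against 24.5% of all tested genes. All 9 members passed the filter of 1 FPKM. This count, like the choice of the genes, was made with earlier results of these data known. A missed threshold does not show that a level was the same in both groups, so the interval is given for each gene.

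Per length, Gpx1 was the most abundant of the 9, with a mean of 1181 FPKM over the 6 libraries, the 86th highest of all tested genes. Gpx4 (509 FPKM) and Selenop (363 FPKM) followed, then Sephs2 (248 FPKM), Selenbp2 (194 FPKM), Selenbp1 (172 FPKM), Dio1 (107 FPKM), Msrb1 (34.1 FPKM) and Txnrd2 (23.3 FPKM). Neighbours in this order were separated in all libraries except Sephs2 and Selenbp2, Selenbp2 and Selenbp1, and Msrb1 and Txnrd2, whose ranges overlapped. The place of Selenbp2 holds in neither group alone: its mean lay below those of Selenbp1 and Dio1 in wild type and above that of Sephs2 in knockout.

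**Figure D2:**
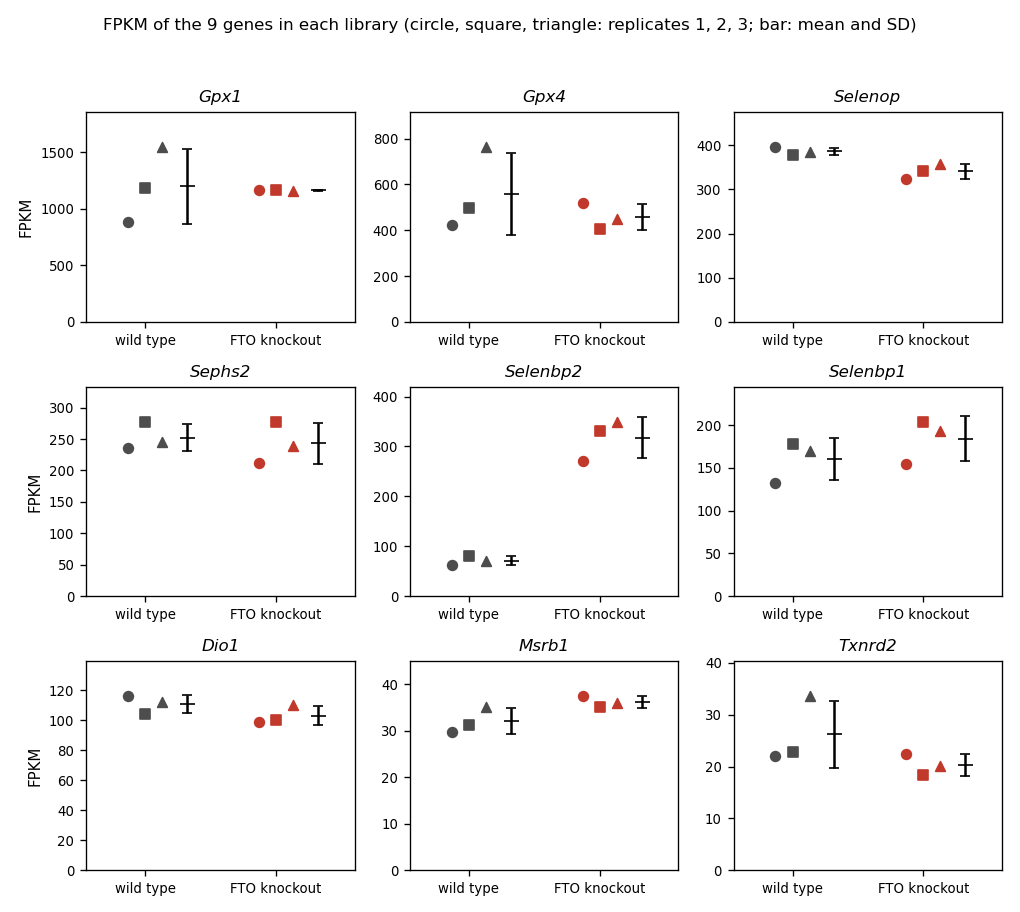
FPKM (vertical axes, each starting at 0) of the 9 genes in each library, with wild type in grey and knockout in red, the symbols standing for replicates and the bars for mean and SD. Selenbp2 is the gene with a wide gap between the groups, and wild type replicate 3 (triangle) is the highest library for Gpx1, Gpx4 and Txnrd2.

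Selenop, which encodes the selenium carrier of plasma (chr15:3268547-3280508), had 395, 379 and 384 FPKM in wild type against 322, 341 and 358 FPKM in knockout. All 3 knockout libraries lay below all 3 wild type libraries, as in 24.5% of tested genes in either direction. The means were 386 ± 8.40 and 340 ± 17.6 FPKM, and the difference of -0.18 (95% interval -0.44 to 0.08, adjusted p 0.450) did not pass the test. An exon of Ccdc152 overlaps Selenop on the opposite strand, and the sources used here do not give whether counting used strand. The genes most like Selenop over the 6 libraries, among the same 4061 genes, were Elovl5 (Pearson coefficient 0.998), Sec14l2 (0.993), Cog4 (0.990), Eif2d (0.985) and Acot12 (0.983). Each was lower in knockout without overlap, so these coefficients too mainly follow the gap between the groups. Elovl5, a fatty acid elongase gene, had a much wider gap, from 165.5, 129 and 137 FPKM to 34.2, 57.7 and 82.2 FPKM.

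Neither glutathione peroxidase gene was called, and both spread widely over the wild type libraries. Gpx1, which encodes the cytosolic enzyme that reduces hydrogen peroxide (chr9:108338903-108340343), had 879, 1179 and 1542 FPKM in wild type against 1166, 1165 and 1154 FPKM in knockout. The 3 knockout values lay inside the wild type range. The coefficient of variation was 27.7% in wild type and 0.599% in knockout, and the difference was -0.01 (95% interval -0.48 to 0.46, adjusted p 0.989). Without wild type replicate 3 it was 0.19 (adjusted p 0.462). Gpx4, whose product reduces lipid hydroperoxides in membranes and protects cells from ferroptosis (chr10:80047166-80056439), had 421, 496 and 762 FPKM in wild type against 519, 406 and 448 FPKM in knockout. The difference was -0.25 (95% interval -0.78 to 0.27, adjusted p 0.611), and -0.01 without wild type replicate 3 (adjusted p 0.986).

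Both peroxidase genes were highest in wild type replicate 3, by 0.60 (Gpx1) and 0.74 (Gpx4) on the log2 scale relative to the mean of the other wild type libraries. Their longest annotated transcripts, 1072 and 995 bases, fall in the short class that was high in that library by a median of 0.38. Msrb1, with 1211 bases, is in that class too and was higher there by 0.20. The same library had the highest summed level of 8 erythroid marker genes, 875 FPKM. The lowest wild type library had 406 FPKM and the knockout libraries 316 to 457 FPKM. Of the 5 erythroid markers tested, 4 were lower in knockout at an unadjusted limma p under 0.05, beside 18.7% of all tested genes in either direction. Limma called 0 of them, beside 2.76% of all tested genes. Wild type replicate 3 also had the highest FPKM sum over all genes, 1076602, and the lowest share of it from mitochondrial genes, 23.2%. The other wild type libraries summed to 843847 and 902647, and the knockout libraries to 866588 to 902782. The part of transcript length, erythroid markers or library sums in the Gpx1 and Gpx4 values was not tested.

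Txnrd2, the mitochondrial thioredoxin reductase gene (chr16:18426384-18479073), was also highest in wild type replicate 3, with 22.1, 22.9 and 33.6 FPKM in wild type against 22.5, 18.4 and 20.1 FPKM in knockout. The difference was -0.33 (95% interval -0.74 to 0.08, adjusted p 0.367), the largest in size among the 8 genes, and -0.14 without wild type replicate 3 (adjusted p 0.503). Its longest transcript has 2874 bases, and it was higher in that library by 0.56, where genes over 1500 and up to 4000 bases had a median of 0.07. Msrb1, which repairs oxidised methionine (chr17:24736642-24742778), had 29.8, 31.2 and 35.2 FPKM in wild type against 37.5, 35.1 and 36.0 FPKM in knockout. The knockout libraries were at or above the highest wild type library except for knockout replicate 2, which lay just below it. Its difference was 0.17 (95% interval -0.09 to 0.43, adjusted p 0.462).

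Dio1, the deiodinase gene that activates thyroid hormone in liver (chr4:107291465-107307169), had 116, 104 and 112 FPKM in wild type against 98.5, 100.3 and 110.1 FPKM in knockout. The groups overlapped, with a difference of -0.10 (95% interval -0.37 to 0.16, adjusted p 0.688). Sephs2 makes selenophosphate, the selenium donor for selenocysteine, and is itself a selenoprotein (chr7:127271879-127274055). It had 236, 277 and 245 FPKM in wild type against 213, 278 and 239 FPKM in knockout, with a difference of -0.06 (95% interval -0.39 to 0.27, adjusted p 0.876). An unclassified model, Gm44729, overlaps Sephs2 on the opposite strand.

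Of the 24 mouse selenoprotein genes, the 7 members held 87.0% to 89.6% of the summed FPKM in each library, and Gpx1 alone 37.0% to 44.4%. The sum over the 24 genes was 2374, 2807 and 3474 FPKM in wild type against 2728, 2677 and 2717 FPKM in knockout. The knockout sums lay inside the wild type range. Over all genes, the FPKM summed to 843847, 902647 and 1076602 in wild type against 902782, 889735 and 866588 in knockout. The wild type sums of the 24 genes rose in the same order as these totals. The part of the totals in the sums of the 24 genes was not tested. Of the 24 genes, 16 averaged 1 FPKM or more and entered the test. The other 8 did not exceed 1.01 FPKM in any library, among them Dio2, which was listed at 0 in all 6 libraries.

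None of the 16 tested selenoprotein genes was called by limma, against 2.76% of all tested genes, while 2, Selenok (higher) and Selenot (lower), reached an unadjusted p under 0.05, against 18.7%. Their median log2 difference was -0.06, beside -0.00 over all tested genes. Of the differences, 5 were above and 11 below 0, beside 5176 and 5229 of all 10405 tested genes. Selenok encodes a membrane protein of the endoplasmic reticulum. It was at 92.3, 101.8 and 114.7 FPKM in wild type against 149, 122 and 138 FPKM in knockout, without overlap, and its difference was 0.40 (95% interval 0.09 to 0.72, adjusted p 0.171). Selenot, whose product also lies in that compartment, was at 7.75, 7.21 and 6.09 FPKM in wild type against 5.56, 5.49 and 5.46 FPKM in knockout, also without overlap (difference -0.30, 95% interval -0.55 to -0.04, adjusted p 0.207).

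Selenoh, a nucleolar protein gene, had the lowest difference of the 16, -0.48 (95% interval -0.98 to 0.02, adjusted p 0.290), with 2.71, 3.07 and 5.38 FPKM in wild type against 1.98, 2.90 and 2.07 FPKM in knockout. Selenof, at 187 ± 30.6 FPKM in wild type against 183 ± 8.38 FPKM in knockout, was the only other selenoprotein gene besides Selenok above 100 FPKM that is not a member. The remaining tested genes Selenoi, Selenoo, Selenos, Selenow and Txnrd1 were at 1.03 to 6.21 FPKM, with log2 differences from -0.12 to 0.11 and adjusted p-values of 0.613 or more.

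**Figure D3:**
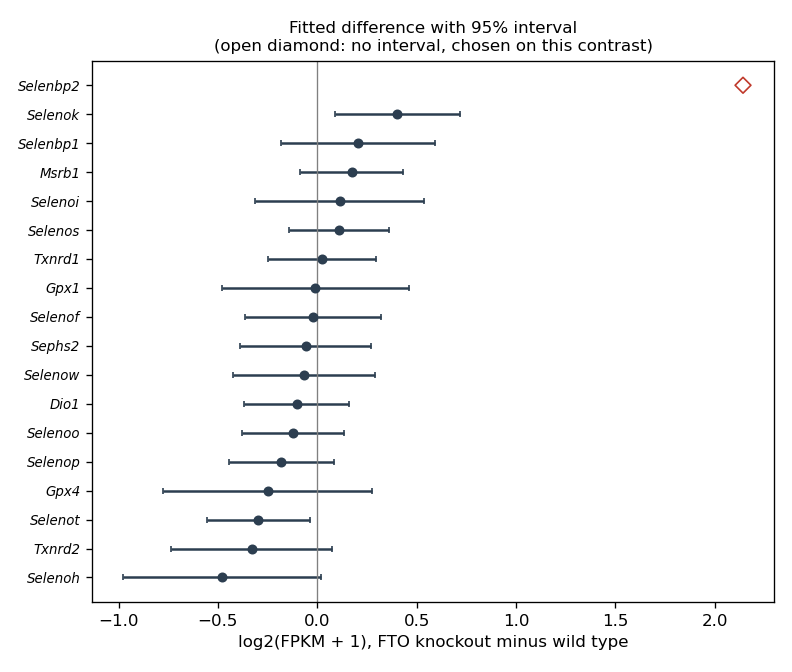
Fitted differences in log2(FPKM + 1), knockout minus wild type, with 95% intervals, for the 16 tested selenoprotein genes and Selenbp1, and the difference of Selenbp2 as an open diamond without an interval. Selenbp2 lies at 2.14, and all other genes shown lie between -0.48 and 0.40.

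The proteins that make and insert selenocysteine are encoded by genes of which 12 were listed, and all 12 were tested. Limma called none of the 12 (2.76% of all tested genes), and 2, Rpl30 (higher) and Pstk (lower), reached an unadjusted p under 0.05, close to the 18.7% of all tested genes. Their median was -0.03. Pstk, the kinase that prepares the selenocysteine tRNA, was at 11, 14 and 17.5 FPKM in wild type against 6.86, 11.5 and 9.51 FPKM in knockout (difference -0.56, adjusted p 0.208). Rpl30, a ribosomal protein that also binds the selenocysteine hairpin, was at 498, 538 and 840 FPKM in wild type against 979, 817 and 815 FPKM in knockout (difference 0.51, adjusted p 0.251). Without wild type replicate 3 Rpl30 was called higher (0.74, adjusted p 0.0297). Of 3 receptors of selenoprotein P, Lrp1 was tested, with a difference of 0.13 (adjusted p 0.749), and Lrp8 and Lrp2 had means under 1 FPKM.

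Of 23 peroxidase and reductase genes that work without selenocysteine, 21 were tested and 0 called by limma (2.76% of all tested genes). An unadjusted p under 0.05 was reached by 1 gene in the higher direction and 4 in the lower, beside 18.7% of all tested genes, and the median was -0.12. Prdx4, the peroxiredoxin of the endoplasmic reticulum, was at 61.2, 72.5 and 77.7 FPKM in wild type against 96, 106.2 and 97.6 FPKM in knockout, without overlap (difference 0.50, 95% interval 0.20 to 0.80, adjusted p 0.0901). It was called higher without wild type replicate 3 (adjusted p 0.0453), with quantile normalization (0.0338) and with the length trend removed (0.0448). Msra, the methionine sulfoxide reductase that complements Msrb1, was at 80.6, 96.1 and 105.1 FPKM in wild type against 66.0, 68.2 and 68.7 FPKM in knockout, again without overlap (difference -0.46, adjusted p 0.115). Cat, which encodes catalase and was chosen after its values were seen, was at 1296, 1347 and 1096 FPKM in wild type against 940, 976 and 924 FPKM in knockout (difference -0.39, adjusted p 0.171), and it was called lower without wild type replicate 3 (adjusted p 0.0418).

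Among 10 genes of methanethiol and sulfide metabolism, the chemistry next to that of SELENBP1, 0 were called by limma (2.76% of all tested genes), and 2 reached an unadjusted p under 0.05, both lower, about the share among all tested genes (18.7%). Their median of -0.24 was below that of all tested genes. Of the 10 differences, 9 were below 0, beside 5229 of all 10405 tested genes. Cdo1, the cysteine dioxygenase gene, was at 1121, 931 and 955 FPKM in wild type against 551, 693 and 631 FPKM in knockout, without overlap (difference -0.68, 95% interval -1.02 to -0.34, adjusted p 0.0547). Without wild type replicate 3 it was called lower (-0.71, adjusted p 0.0448). Suox, the sulfite oxidase gene, was at 40.2, 53.5 and 43.7 FPKM in wild type against 27.7, 34 and 36.4 FPKM in knockout (difference -0.47, adjusted p 0.161).

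Of 10 genes of thyroid hormone handling and response, the setting of Dio1, 9 were tested. Limma called 0 higher and 1 lower, beside 2.76% of all tested genes in either direction. An unadjusted p under 0.05 was reached by 3, all lower, beside 18.7% of all tested genes, and the median was -0.17. The called gene was Me1, the malic enzyme gene, at 117, 117 and 193 FPKM in wild type against 48.4, 58.2 and 50.9 FPKM in knockout (difference -1.39, adjusted p 0.0169). It was not called without knockout replicate 1 (adjusted p 0.0720) or 3 (0.0871) or without a filter on low values (0.137). Me1 is also an enzyme that supplies NADPH for fat synthesis.

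**Figure D4:**
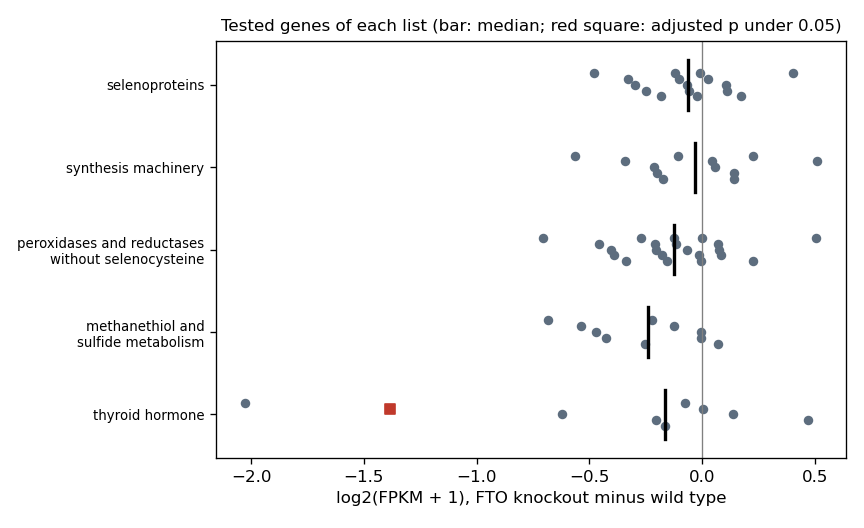
Log2 differences, knockout minus wild type, of the tested genes in 5 lists, each point a gene and each black bar the median of the list. The medians lie between -0.24 and -0.03, and 1 gene (Me1, red square) is called.

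The 12 hepatocyte markers all averaged above 1 FPKM, and 1 of them, Ahsg, was called higher (2.76% of all tested genes were called). Of the 12, 6 reached an unadjusted p under 0.05 (18.7% of all tested genes) and 6 did not overlap between the groups (24.5%), all of them higher, and their median log2 difference was 0.23. The albumin gene Alb had an entry of 0 in 2 libraries (wild type replicate 1, knockout replicate 3), as a failed estimate can give. Markers of other cells moved with the groups in part. Beside 5176 of all 10405 tested genes, all 10 Kupffer cell and macrophage markers had higher means in knockout on the log2 scale. Limma called none of them, and 5 had an unadjusted p under 0.05, beside 18.7% of all tested genes. Their summed level was 66.0 to 225.8 FPKM in wild type against 189 to 331 FPKM in knockout. These ranges overlap, with 225.8 FPKM in wild type replicate 3 and 189 FPKM in knockout replicate 2. The 6 adipocyte markers summed to 17.8 to 45.4 FPKM in wild type against 11.5 to 14.9 FPKM in knockout, with Adipoq, Plin1 and Lep at 0.233 FPKM or less and with Cfd, the gene of complement factor D, called lower (difference -1.70, adjusted p 0.00388). The part of these markers in the member values was not tested. In such tissue samples, fewer cells of a type and less RNA per cell cannot be told apart.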

How the data were processed

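The deposited table gives FPKM for 25690 Ensembl genes in 6 libraries, a unit taken from the file's values and the submitters' processing notes, which name TopHat2 2.1.0, HTSeq, Cufflinks 2.2.1 and mm10 without a role. The sources used here do not give the annotation release. Symbols came from GENCODE M21 (GRCm38), which matched 24807 identifiers. Libraries were made from total RNA, per the labels' protocols. Groups follow the genotype label, and replicate numbers follow sample order and pair nothing. Depth was inferred from values that correspond to single fragments in 964 single-transcript genes of 3000 to 8000 bases, keeping estimates of 25000000 to 50000000 fragments, a window set with the values known. Of the deposited FPKM values above 0, 50.7% had more than 6 significant digits, and 63.4% of these had at most 6 when doubled, as a mean of 2 values would. Whether and what the authors averaged is not stated, so a library value may be such a mean and the inferred depth is uncertain.

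Limma 3.58.1 in R 4.3.3 (lmFit, eBayes with trend, two-sided) was fitted to log2(FPKM + 1) for 10405 genes averaging 1 FPKM or more, a scale that understates changes of low genes, and was tested on simulated data. Folds are ratios of mean FPKM. The members and lists were chosen with earlier results of these data known. Named are the members, Fto, tested selenoprotein genes, called genes of each other list or its 2 smallest p-values, and the 5 genes most like Selenbp2 and Selenop without predicted models, except for results not reported here. Alternatives were other scalings (median ratio, quantile, nuclear sum), a pseudocount of 0.1, no filter, robust empirical Bayes, leaving out each library and, added after the data were seen, removal of a transcript length trend (lowess, span 0.3).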

Additional observations from a re-analysis of the deposited data

How the results depend on the processing

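No paired analysis was possible because the labels give the groups no shared replicate numbers. The 8 members other than Selenbp2, the 16 selenoprotein genes and the selenoprotein P receptors had 0 calls under every alternative run. The 287 called genes became 79 without a filter (34 higher, 45 lower), 506 with the length trend removed (216 higher, 290 lower) and 77 to 475 with 1 library left out (38 to 266 higher, 39 to 209 lower), and quantile normalization gave 182 higher genes. Calls among peroxidases and reductases rose from 0 to 1 with quantile normalization or the length trend removed and were 0 to 2 with a library left out. Those of the synthesis machinery and of methanethiol and sulfide metabolism were 0 to 1 with a library left out. The 1 thyroid list call became 0 without a filter, 2 with the length trend removed and 0 to 2 with a library left out. Several uncalled differences near 0 changed sign. Gpx1 was at 0.002, 0.0957 and 0.0386 with median ratio, quantile and nuclear sum scaling and at -0.22 to 0.19 with a library left out. Selenof was at 0.0096 and 0.0267 with quantile and nuclear sum scaling. With a library left out, Selenof ran from -0.15 to 0.0876, Sephs2 from -0.16 to 0.0335, Selenow from -0.18 to 0.0888, Txnrd1 from -0.0471 to 0.0809 and Lrp1 from -0.0547 to 0.23. No scaling moved the median of all genes by over 0.04. The cause was not tested. Among the fits with a library left out, the largest total came without wild type replicate 3 and the smallest without knockout replicate 3. The summed pair of copies stayed at 1.01 to 1.22 on the log2 scale with a library left out. Depth is inferred only, and the number of libraries (3 a group) limits the precision, as the printed intervals show.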
